A study of Mus musculus with 12 samples.

Results

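Tunicamycin given before lipopolysaccharide (LPS) was compared with LPS alone in mouse bone-marrow-derived macrophages by RNA sequencing. The comparison rested on 6 of the 12 libraries of the series, 3 with both agents and 3 with LPS, and on 10311 of the 24346 genes listed, those with at least 1 FPKM in at least 3 of the 12 libraries. FPKM is the number of sequenced fragments of a gene scaled by its transcript length and by the size of the library. Per the study's title, the question was how endoplasmic reticulum (ER) stress alters an inflammatory response.

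All cells were labelled wild type and were grown from bone marrow with M-CSF, the macrophage growth factor, over 7 days in medium with 10% serum. The Tm+LPS cells had tunicamycin (Tm) at 5 ug/ml for 3 h and then LPS at 1 ng/ml for 3 h. The LPS cells had LPS at 1 ng/ml for 3 h. The series also holds 3 libraries of cells with tunicamycin at 5 ug/ml and no LPS, and 3 of control cells with neither agent. These were used to ask whether tunicamycin acted alike without LPS. The sources used here do not give the exposure time of the Tm cells, the presence of tunicamycin during LPS, the strain or the sex. Nothing in the labels tells whether replicates came from different animals or dishes. The p-values therefore cover only the variation among these libraries, which may be technical.

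Tunicamycin blocks the first step of N-linked glycosylation, and the ER then fills with unfolded protein. The sensors IRE1, PERK and ATF6 answer with the unfolded protein response. IRE1 splices the mRNA of the transcription factor XBP1, PERK slows translation while it favours that of ATF4, and ATF6 is cut to release a transcription factor. Together these raise chaperones, ER-associated degradation and amino acid supply, and ATF4 also induces CHOP, which is linked to cell death. LPS is a bacterial cell wall component that CD14 and TLR4 sense in macrophages. TLR4 signals through MyD88 to NF-kB and MAP kinases, which induce inflammatory cytokines, and through TRIF to IRF3, which induces interferon beta and then interferon-response genes.

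The promoters of 6 genes that carry the results are shown, 2 for each of 3 motifs: ER stress targets, amino acid response targets and LPS targets that moved in opposite directions. They are RefSeq windows of 300 bases around the gene's start on GRCm38.p6, written in the gene's direction: Hspa5 chr2:34771840-34772139 (plus), Syvn1 chr19:6046326-6046625 (plus), Trib3 chr2:152344011-152344310 (minus), Asns chr6:7693160-7693459 (minus), Il6 chr5:30012864-30013163 (plus) and Cxcl10 chr5:92348840-92349139 (minus). Capitals mark matches on either strand. They are to the ER stress element (ERSE, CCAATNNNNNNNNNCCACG), which ATF6 binds with NF-Y, in Hspa5 and Syvn1. In Trib3 and Asns they are to the C/EBP-ATF response element (CARE, TGATGNAA), which ATF4 binds. In Il6 and Cxcl10 they are to the kappa B consensus, which NF-kB binds.
Hspa5: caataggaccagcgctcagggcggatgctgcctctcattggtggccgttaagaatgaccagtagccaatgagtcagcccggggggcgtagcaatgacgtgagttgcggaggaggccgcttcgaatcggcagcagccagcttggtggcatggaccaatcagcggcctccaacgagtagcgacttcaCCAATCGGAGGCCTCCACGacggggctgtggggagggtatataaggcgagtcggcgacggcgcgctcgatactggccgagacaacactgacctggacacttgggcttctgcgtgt
Syvn1: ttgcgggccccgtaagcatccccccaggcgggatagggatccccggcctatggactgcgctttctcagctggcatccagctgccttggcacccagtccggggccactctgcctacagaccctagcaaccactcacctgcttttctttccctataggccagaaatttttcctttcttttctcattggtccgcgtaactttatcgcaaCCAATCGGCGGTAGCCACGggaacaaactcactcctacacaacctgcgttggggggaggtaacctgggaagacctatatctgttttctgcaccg
Trib3: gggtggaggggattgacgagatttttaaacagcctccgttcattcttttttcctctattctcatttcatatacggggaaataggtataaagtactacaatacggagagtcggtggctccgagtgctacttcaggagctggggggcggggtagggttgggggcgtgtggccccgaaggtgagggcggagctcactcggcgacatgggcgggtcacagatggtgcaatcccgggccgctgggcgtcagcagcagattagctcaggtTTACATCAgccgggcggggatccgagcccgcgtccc
Asns: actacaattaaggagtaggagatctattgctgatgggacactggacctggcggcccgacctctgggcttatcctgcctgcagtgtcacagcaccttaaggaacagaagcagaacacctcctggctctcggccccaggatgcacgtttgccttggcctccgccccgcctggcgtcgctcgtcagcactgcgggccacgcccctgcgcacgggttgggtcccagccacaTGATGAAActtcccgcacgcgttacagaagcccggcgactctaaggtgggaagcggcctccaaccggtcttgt
Il6: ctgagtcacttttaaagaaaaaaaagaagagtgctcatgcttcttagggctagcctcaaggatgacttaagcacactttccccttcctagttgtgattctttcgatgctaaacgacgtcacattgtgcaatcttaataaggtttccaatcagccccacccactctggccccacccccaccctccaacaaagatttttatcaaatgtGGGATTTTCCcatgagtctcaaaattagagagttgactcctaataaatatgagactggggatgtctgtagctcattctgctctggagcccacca
Cxcl10: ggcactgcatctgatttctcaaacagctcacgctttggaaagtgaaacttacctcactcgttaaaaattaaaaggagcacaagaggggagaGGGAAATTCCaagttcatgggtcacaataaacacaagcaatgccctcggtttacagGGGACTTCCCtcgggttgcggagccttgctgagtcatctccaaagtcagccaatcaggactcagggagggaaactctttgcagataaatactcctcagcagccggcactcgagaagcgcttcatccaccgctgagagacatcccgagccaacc

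The ERSE letters stood in 6 of the 302 genes with a promoter window that were at least 2-fold higher with Tm+LPS (1.99%) and in 0 of the 300 that were at least 2-fold lower. They stood in 0.137% of all 27025 genes with a window and in 0.163% of tested genes. CARE stood in 20 of the 302 genes (6.62%) and in 11 of the 300 (3.67%), against 4.51% of all genes and 2.8% of tested genes. The kappa B consensus stood in 24 of the 302 (7.95%) and in 22 of the 300 (7.33%), against 5.14% of all genes and 6.2% of tested genes. ERSE and the kappa B consensus overlapped in 1 window, and CARE overlapped with neither. A match says only that these letters are in the window.

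Summed FPKM was 601943 to 666042 in the Tm+LPS libraries and 666197 to 685010 in the LPS libraries, and sequencing depth was unknown. Across genes, libraries of a group correlated with r of 0.9726 to 0.9844 and libraries of different groups with 0.9401 to 0.9515. On the second principal component of the 6 libraries, with 13.4% of the variance against 58% on the first, the Tm+LPS libraries were spread, reaching 27.94 for replicate 3, -9.84 for replicate 2 and -20.22 for replicate 1, while LPS libraries lay between 0.17 and 1.76. The summed level of 11 macrophage markers was 16600 to 26000 FPKM with Tm+LPS and 20100 to 25600 FPKM with LPS, and 8 of them, among them Csf1r and Itgam, did not pass the test. Fcgr1, Cd14 and Cd68 fell. Markers of dendritic, T and NK, B, erythroid and mast cells were at or near 0, with a highest summed level of 8.2 FPKM for the dendritic list with Tm+LPS and 10.7 FPKM with LPS. In RNA from bulk cultures, fewer cells of a type and less RNA per cell cannot be told apart.

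Values were compared as log2(FPKM + 1) with limma, and the threshold was an adjusted p (Benjamini-Hochberg) below 0.05 over all 10311 genes. Fold changes below are on this scale, which understates them for low genes, and errors of log2 changes are standard errors. Of the genes tested, 2978 (28.9%) passed, with 1419 higher with Tm+LPS (13.8%) and 1559 lower (15.1%). At least 2-fold changes were found in 399 and 386 of them, and at least 4-fold changes in 52 and 37. The Tm+LPS and LPS libraries did not overlap in 4155 of the 10311 genes (40.3%), so lack of overlap was common. The median change over all genes was 0.00242 on the log2 scale. The shares of 13.8% higher and 15.1% lower are those to set beside the counts in gene lists below. The lists were chosen with earlier results of these data known, so the shares give only a scale and test no list.

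**Figure D1:**
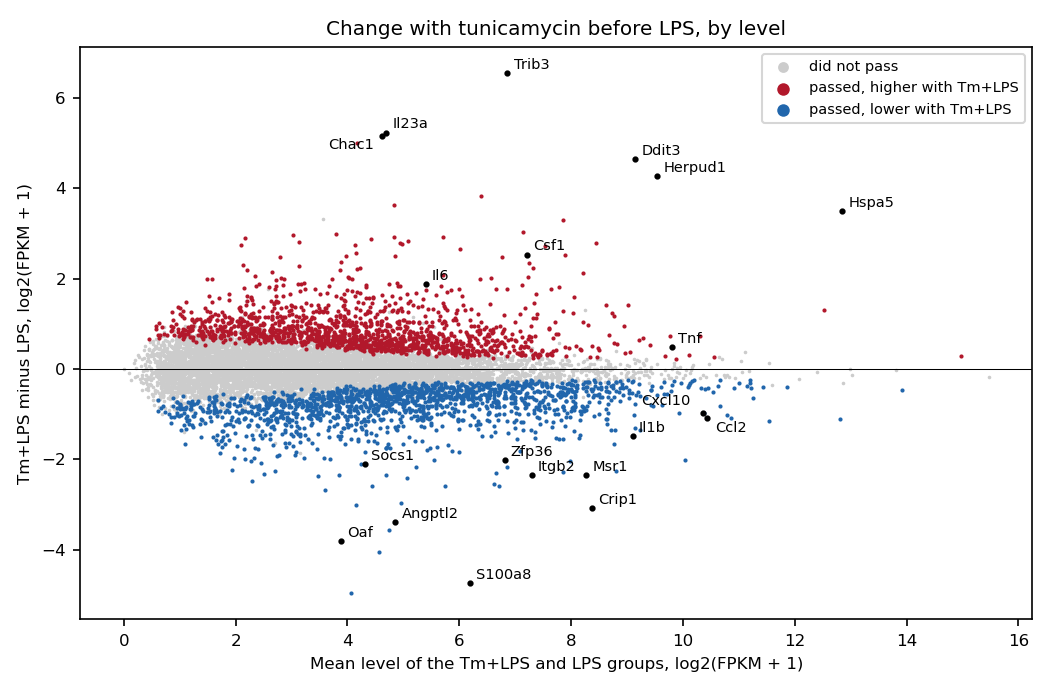
Each point is 1 of 10311 genes, with the mean level of the Tm+LPS and LPS groups on the x axis and the change between them on the y axis, both as log2(FPKM + 1). Trib3 (6.55), Il23a (5.23), Chac1 (5.15) and Ddit3 (4.65) lie highest among the labelled genes, and S100a8 (-4.73) and Oaf (-3.81) lowest.

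Genes of the unfolded protein response were among the largest rises. Trib3, a pseudokinase induced by ATF4 and CHOP (chromosome 2, 152337422 to 152344032, minus strand, mm10), had 220, 229 and 239 FPKM with Tm+LPS, against 2, 1.34 and 1.1 FPKM with LPS. The libraries of the groups lay far apart, and the difference was 93.8-fold (log2 6.55 ± 0.15, limma adjusted p = 2.9e-14). Ddit3, which encodes CHOP, had 1322, 861 and 1096 FPKM with Tm+LPS, against 49.3, 42.6 and 35.3 FPKM with LPS. That was a 25-fold difference without overlap (log2 4.65 ± 0.15, adjusted p = 2.02e-12). Hspa5, the ER chaperone BiP, whose gene runs on the plus strand of chromosome 2 from 34771970 to 34777547, had 14851, 11578 and 14163 FPKM with Tm+LPS, against 1110, 1233 and 1250 FPKM with LPS. It was 11.2-fold higher (log2 3.49 ± 0.14), without overlap.

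Of 17 tested sensors and transcription factors of this response, 12 rose, 1 fell and 4 did not pass, with a median log2 change of 0.99. Atf4 had 255, 263 and 237 FPKM with Tm+LPS, against 59.9, 45.7 and 42 FPKM with LPS, a 5.09-fold rise (log2 2.35 ± 0.12). Xbp1 rose 2.18-fold (log2 1.12 ± 0.09) and Atf6 2.45-fold (log2 1.29 ± 0.14). The sensor genes themselves were low: Ern1, which encodes IRE1, averaged 5.98 FPKM with Tm+LPS and 1.27 FPKM with LPS, and Eif2ak3, which encodes PERK, 5.44 and 2.24 FPKM. Both rose, by log2 1.61 ± 0.23 for Ern1 and 0.99 ± 0.23 for Eif2ak3. Creb3l2, an ER-bound transcription factor cut like ATF6, rose 3.51-fold (log2 1.81 ± 0.24). Atf3, also an LPS target, was only 1.25-fold higher (log2 0.32 ± 0.11, adjusted p = 0.0355), and its adjusted p was 0.0552 to 0.151 without LPS replicate 1 or 2 or without Tm+LPS replicate 1 or 3. The fall was in Eif2ak2, the double-stranded RNA sensor PKR (log2 -0.66, adjusted p = 0.0347), which lost its call when any of 5 of the 6 libraries was left out, all but LPS replicate 2.

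Among 23 tested targets of ATF4 and CHOP, 20 rose, 0 fell and 3 did not pass, and the median log2 change was 1.84. Chac1, which breaks down glutathione, had 44.1, 46.5 and 50.5 FPKM with Tm+LPS, against 0.365, 0 and 0.786 FPKM with LPS. It was barely detected without tunicamycin and stood 35.6-fold higher with it (log2 5.15 ± 0.24). Herpud1, an ER membrane protein of ER-associated degradation, rose 19.1-fold to 1409 ± 30.1 FPKM with Tm+LPS, against 73.2 ± 10.1 FPKM with LPS (SD, n = 3 each). Nupr1, a stress-induced chromatin protein, rose 9.88-fold (log2 3.30 ± 0.23). Ppp1r15a, the phosphatase subunit that lets translation resume, had 652, 574 and 599 FPKM with Tm+LPS, against 81.8, 86.8 and 95.3 FPKM with LPS. Sesn2, a brake on mTORC1 (log2 2.91 ± 0.15), and Gadd45a, a growth arrest gene (log2 2.76 ± 0.23), rose as well. Ppp1r15b, the constitutive relative of Ppp1r15a, was among those that did not pass (log2 -0.36).

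ER chaperones and folding enzymes ranged from log2 3.83 in Dnajb9 to -0.66 in Erp29. Among 35 tested there were 14 rises and 4 falls, with a median of log2 0.19. Dnajb9, a BiP partner that dampens IRE1, had 159, 156 and 150 FPKM with Tm+LPS, against 11.2, 10.4 and 8.47 FPKM with LPS, a 14.2-fold rise without overlap. Manf, a secreted ER stress protein, rose 6.66-fold (log2 2.73 ± 0.13), Creld2 5.73-fold (log2 2.52 ± 0.18), Hyou1, an ER nucleotide exchange factor, 3.66-fold (log2 1.87 ± 0.18) and the disulfide isomerase Pdia4 3.52-fold (log2 1.82 ± 0.18). Canx, the lectin chaperone calnexin (log2 0.14), and the disulfide isomerase gene P4hb (log2 0.12) did not pass, though P4hb did with quantile normalization (adjusted p = 0.0194). The falls were Erp29 (log2 -0.66), Tmx1 (log2 -0.62), Cnpy3 (log2 -0.55) and Ppib (log2 -0.38), the last lost when any of 5 of the 6 libraries, all but Tm+LPS replicate 1, was left out (adjusted p = 0.0542 to 0.149). Cnpy3 is a chaperone of Toll-like receptors.

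In ER-associated degradation, which exports misfolded protein for destruction, 13 of 29 genes rose and 0 fell, with a median of log2 0.34. Syvn1, the ubiquitin ligase HRD1, had 54.3, 49.2 and 53.4 FPKM with Tm+LPS, against 5.14, 7.42 and 7.99 FPKM with LPS (6.88-fold, log2 2.78 ± 0.15). Its partner Sel1l rose 4.09-fold (log2 2.03 ± 0.12). Derl3, a channel component, had 12.3, 3.53 and 3.92 FPKM with Tm+LPS and was listed at 0 in every LPS library. Of 43 genes of translocation into and export from the ER, 14 rose and 7 fell, among them the coat subunit Sec24d (log2 1.34 ± 0.15), the signal recognition subunit Srp68 (log2 1.13 ± 0.11) and the channel subunit Sec61b (log2 -1.30 ± 0.24). The falls numbered 4 with quantile normalization.

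The N-glycosylation pathway, which tunicamycin blocks, had 7 rises, 8 falls and 24 genes not passed of 39. These shares were close to those over all tested genes, 13.8% higher and 15.1% lower. The rises were strongest in the enzymes that make UDP-GlcNAc, the sugar donor of the blocked step. Gfpt1, the first of them, had 16.4, 13.7 and 10.7 FPKM with Tm+LPS, against 3.34, 3.2 and 3.1 FPKM with LPS (3.42-fold, log2 1.77 ± 0.20). Uap1 (log2 1.28), Pgm3 (log2 1.20) and Gnpnat1 (log2 1.18), which act after it, rose too. Dpagt1, the enzyme that tunicamycin inhibits, had 60, 46.6 and 58.1 FPKM with Tm+LPS, against 68.1, 62 and 53.7 FPKM with LPS. These overlapped, and the change did not pass (log2 -0.16 ± 0.13, adjusted p = 0.388). Dad1 (log2 -1.26 ± 0.13) and Ost4 (log2 -1.07 ± 0.13), small subunits of the oligosaccharyltransferase, fell, while the catalytic subunits Stt3a (log2 0.02) and Stt3b (log2 0.20) did not pass. The 8 falls became 4 without LPS replicate 1 and 5 without LPS replicate 3 or Tm+LPS replicate 3.

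Genes of amino acid supply mostly rose. Of 20 cytosolic aminoacyl-tRNA synthetases, which charge tRNAs, 16 rose and 0 fell, with a median of log2 1.32. Aars had 244, 281 and 263 FPKM with Tm+LPS, against 52.3, 64.5 and 49.4 FPKM with LPS (4.69-fold, log2 2.23 ± 0.11), and Cars rose 4.19-fold (log2 2.07 ± 0.13). Of the 4 that did not pass, Farsb had the change furthest from 0 (log2 0.23). Of 27 genes of amino acid synthesis, one-carbon metabolism and transport, 17 rose and 3 fell, with a median of log2 1.17. Asns, asparagine synthetase, had 284, 211 and 253 FPKM with Tm+LPS, against 30.2, 32.9 and 25.3 FPKM with LPS (8.21-fold, log2 3.04 ± 0.14). The transporters Slc38a2 (log2 2.92 ± 0.13) and Slc7a5 (log2 2.74 ± 0.18) rose, as did Aldh18a1, a proline synthesis enzyme (log2 2.83 ± 0.22). Slc1a5, a glutamine transporter, fell to 6.53 FPKM with Tm+LPS, against 22.4 FPKM with LPS (log2 -1.66 ± 0.18). The other falls were Slc7a6 (log2 -0.61) and Mthfd1 (log2 -0.49). Slc7a6 lost its call when any 1 of 10 of the 12 libraries, all but LPS replicate 1 and Tm+LPS replicate 2, was left out (adjusted p = 0.0505 to 0.194). Mthfd1 lost it without LPS replicate 2 (0.128) or Tm+LPS replicate 3 (0.109), so that the list then had 1 fall.

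**Figure D2:**
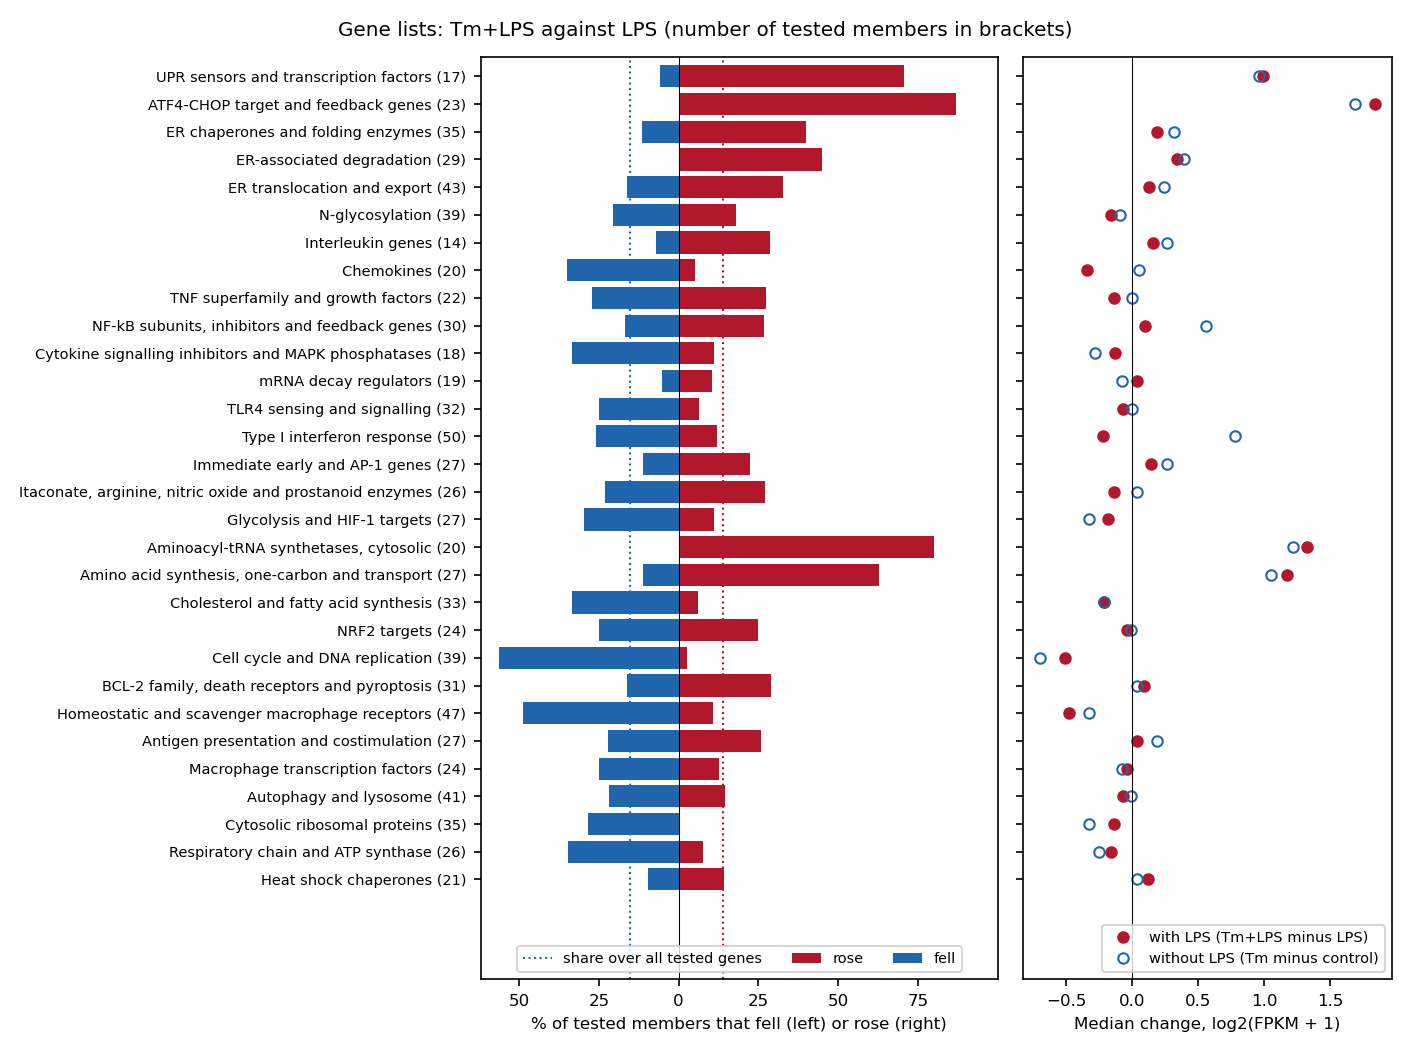
Left, the share of tested members of 30 gene lists that rose or fell with Tm+LPS relative to LPS, with dotted lines at the shares over all tested genes (13.8% and 15.1%). Right, the median change of each list with LPS (filled) and without LPS (open): the median of the interferon list lies at -0.22 with LPS and at 0.78 without it.

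Cytokine genes did not move as a block. Of 14 tested interleukin genes, 4 rose, 1 fell and 9 did not pass. Il23a, which encodes a subunit specific to interleukin-23 (chromosome 10, 128296139 to 128298752, minus strand), had 56.5, 48.6 and 43.1 FPKM with Tm+LPS, against 0.519, 0.186 and 0.31 FPKM with LPS. Its partner subunit gene Il12b had 126, 21.5 and 41.2 FPKM with Tm+LPS, against 21, 14.6 and 50.6 FPKM with LPS. Il23a was thus near 0 in every LPS library, while the Il12b libraries overlapped and its change did not pass (log2 0.92 ± 0.48, adjusted p = 0.162). Without Tm+LPS replicate 2 or LPS replicate 3, Il12b passed at adjusted p = 0.0213 and 0.043. Il12a, the interleukin-12 subunit, was low, at 1.16, 0.908 and 0 FPKM with Tm+LPS and 0.932, 1 and 1.78 FPKM with LPS.

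Among the other interleukins, Il6 had 80.4, 60.1 and 55.5 FPKM with Tm+LPS, against 12.5, 19.6 and 19.3 FPKM with LPS, without overlap. Il1b moved the other way, with 347, 271 and 253 FPKM with Tm+LPS, against 815, 784 and 820 FPKM with LPS. Il1a, its close relative, had 361, 473 and 368 FPKM with Tm+LPS and 429, 573 and 496 FPKM with LPS, which overlapped (log2 -0.32 ± 0.18, adjusted p = 0.202). Il1rn, the antagonist of both, rose 1.54-fold (log2 0.63 ± 0.18, adjusted p = 0.0176), and its adjusted p was 0.0552 to 0.0791 without LPS replicate 1 or 3 or Tm+LPS replicate 2 or 3. Osm, a cytokine of the interleukin-6 family, rose 1.77-fold (log2 0.82 ± 0.18). Il27 (log2 0.02) and Ebi3 (log2 0.17) did not pass, but Ebi3 passed without Tm+LPS replicate 2 (adjusted p = 0.022). Il10, an anti-inflammatory cytokine gene below the expression filter, was listed at 0 in every Tm+LPS library, against 0.815, 0.877 and 1.84 FPKM with LPS (adjusted p = 0.000443 in a limma fit with no filter).

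Chemokines fell more often than they rose, with 1 rise, 7 falls and 12 genes not passed of 20 and a median of log2 -0.34. Ccl12, a monocyte attractant, had 10.1, 0 and 4.66 FPKM with Tm+LPS, against 47.3, 40.3 and 51.8 FPKM with LPS (log2 -3.57 ± 0.58). Ccl2, of the same cluster on chromosome 11, had 907, 853 and 890 FPKM with Tm+LPS, against 1622, 2156 and 1853 FPKM with LPS (2.11-fold lower, log2 -1.08 ± 0.15). Ccl7 was 2.12-fold lower (log2 -1.08 ± 0.13) and Cxcl10, which draws T cells, 1.97-fold (log2 -0.98 ± 0.23). Cx3cl1, the ligand of the receptor Cx3cr1, fell to 1.2 FPKM with Tm+LPS, against 7.73 FPKM with LPS. The rise was in Cxcl2, a neutrophil attractant (log2 0.97 ± 0.18), whose neighbour Cxcl1 did not pass (log2 0.24, adjusted p = 0.529). Ccl5 had 1020, 108 and 259 FPKM with Tm+LPS, against 85.7, 80.8 and 270 FPKM with LPS, so that 1 library set its mean. It did not pass (adjusted p = 0.128) but did without Tm+LPS replicate 2 (0.0146) or LPS replicate 3 (0.0475). Ccl3 (log2 -0.35, adjusted p = 0.0756) passed without Tm+LPS replicate 1 (0.000566). Ccl4 (log2 -0.30, adjusted p = 0.126) passed as lower with quantile normalization (log2 -0.54, 0.012) and without Tm replicate 1 (0.0401). Of the 20 chemokine transcripts, 10 were at most 1200 nucleotides long, and short transcripts were lower with Tm+LPS. With a correction for length the list had 2 rises and 6 falls (2 rises also without LPS replicate 3 or Tm+LPS replicate 2), Ccl5 passed (adjusted p = 0.0203) and the changes of Ccl3 and Ccl4 stood at log2 0.01 and 0.13.

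Tumour necrosis factor family and growth factor genes gave 6 rises and 6 falls of 22. Csf1, which encodes M-CSF (chromosome 3, 107741048 to 107760469, minus strand), had 236, 277 and 236 FPKM with Tm+LPS, against 34.1, 46.8 and 47.5 FPKM with LPS. Tnfsf9, the ligand of the T cell receptor 4-1BB, had 289, 286 and 348 FPKM with Tm+LPS, against 79.3, 105 and 83.4 FPKM with LPS (3.43-fold, log2 1.78 ± 0.15). Both groups of libraries lay apart for each gene. Pdgfb, a mesenchymal growth factor gene, fell to 6.13 FPKM with Tm+LPS, against 29.6 FPKM with LPS (log2 -2.11 ± 0.24), and Edn1, endothelin 1, to 5.21 FPKM, against 13.2 FPKM (log2 -1.23 ± 0.28). Tnf had 1177, 977 and 988 FPKM with Tm+LPS, against 692, 813 and 723 FPKM with LPS. The libraries did not overlap, but the adjusted p of 0.029 rose to 0.0994 without LPS replicate 1, 0.0787 without LPS replicate 3 and 0.107 without Tm+LPS replicate 1. The list had 3 rises with a pseudocount of 0.1. Csf2, which encodes GM-CSF, did not pass, at 8.55, 6.51 and 10 FPKM with Tm+LPS and 7.1, 7.25 and 10.3 FPKM with LPS. Csf3, which encodes G-CSF and lay below the filter, was 0.107, 0.28 and 0 FPKM with Tm+LPS and 1.21, 0.834 and 1.13 FPKM with LPS (adjusted p = 0.000122 with no filter).

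**Figure D3:**
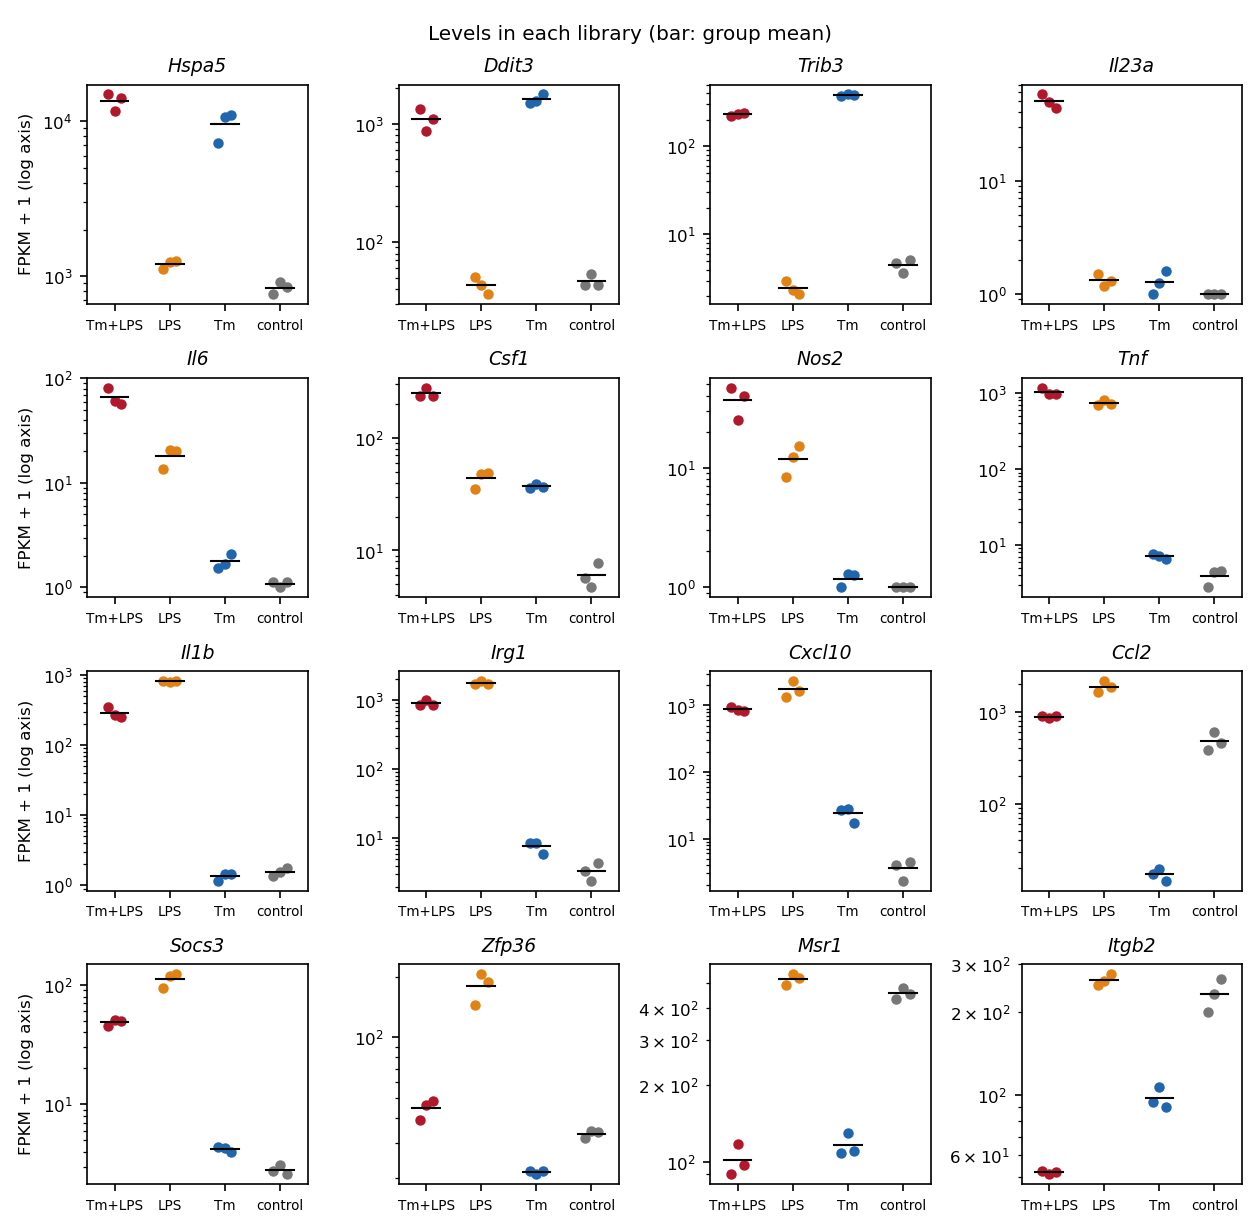
Levels of 16 genes as FPKM + 1 on a log axis in every library of the 4 groups, with bars at group means. Hspa5, Ddit3 and Trib3 are high in both groups with tunicamycin, Il23a is high in the Tm+LPS libraries (43.1 to 56.5 FPKM) and near 0 in the rest, and Msr1 and Itgb2 are low in both groups with tunicamycin.

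Of 30 NF-kB subunits, inhibitors and feedback genes, 8 rose, 5 fell and 17 did not pass, with a median of log2 0.10. The subunit genes Nfkb1 (log2 0.91 ± 0.17) and Relb (log2 0.55 ± 0.13) rose, and so did Nfkbiz, a nuclear cofactor needed for a part of NF-kB targets, to 172 FPKM with Tm+LPS, against 97.8 FPKM with LPS (log2 0.83 ± 0.18). Nfkbiz did not pass with a pseudocount of 0.1 (adjusted p = 0.0525). Nfkbia, the inhibitor IkB-alpha, had 920, 989 and 1123 FPKM with Tm+LPS and 1172, 1093 and 1038 FPKM with LPS, which overlapped (log2 -0.13, adjusted p = 0.336). Tnfaip3, the feedback inhibitor A20, stood at 181 FPKM with Tm+LPS and 133 FPKM with LPS and did not pass (adjusted p = 0.0549), though it did with quantile normalization (0.0239) and without control replicate 2 (0.0258) or 3 (0.0317). It also passed with a filter at 5 FPKM and with only the 6 libraries of the comparison fitted. Tnip3 (log2 -1.28 ± 0.21) and Nfkbid (log2 -0.94 ± 0.25) fell. The falls numbered 3 without LPS replicate 2 or Tm+LPS replicate 3, and without Tm+LPS replicate 3 Nfkbid had an adjusted p of 0.0522.

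Feedback inhibitors of cytokine and MAP kinase signalling gave 2 rises, 6 falls and 10 not passed of 18. Socs3, which restrains interleukin-6 signalling, had 44.2, 49.8 and 48.7 FPKM with Tm+LPS, against 93.9, 119 and 122 FPKM with LPS (2.31-fold lower, log2 -1.21 ± 0.15). Socs1 had 7.48, 5.54 and 6.01 FPKM with Tm+LPS, against 21.9, 41.7 and 30.4 FPKM with LPS. The MAP kinase phosphatases Dusp2 (log2 -1.14 ± 0.25) and Dusp1 (log2 -0.67 ± 0.16) fell too. The rises were Socs4 (log2 0.73, lost without LPS replicate 1 or 3 or Tm+LPS replicate 3 at adjusted p = 0.0762 to 0.104) and Dusp7 (log2 0.94 ± 0.29, adjusted p = 0.0219). Dusp7 lost its call without LPS replicate 2 or 3 or Tm+LPS replicate 1 (0.0717 to 0.0922), and the rises numbered 0 without LPS replicate 3 and 1 without LPS replicate 2 or Tm+LPS replicate 1 or 3. Of 19 regulators of mRNA decay, Zfp36, which binds AU-rich elements of cytokine mRNAs and was listed at 37.7, 45.4 and 47.2 FPKM with Tm+LPS, against 144, 205 and 188 FPKM with LPS, was the one that fell. Btg1 (log2 1.26 ± 0.12) and Cnot8 (log2 0.51 ± 0.13) rose. Falls in this list numbered 2 without LPS replicate 3 or Tm+LPS replicate 2.

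In TLR4 sensing and signalling, there were 2 rises and 8 falls among 32 genes. Ticam2, the adaptor TRAM that links TLR4 to TRIF, had 75, 86.1 and 73.6 FPKM with Tm+LPS, against 19.8, 18.2 and 26 FPKM with LPS (3.57-fold, log2 1.84 ± 0.14). Tollip, a negative regulator, was the other rise (log2 0.54). Tlr4 had 6.98, 12.3 and 7.35 FPKM with Tm+LPS, against 5.19, 6.14 and 6.49 FPKM with LPS. These did not overlap, yet the change did not pass (log2 0.47 ± 0.19, adjusted p = 0.0724) unless Tm+LPS replicate 1 was left out (0.0367). Cd14 fell 1.35-fold (log2 -0.43 ± 0.09), but not with quantile normalization (log2 -0.17, adjusted p = 0.109). Ly96 (log2 -0.07), Myd88 (log2 0.18) and Ticam1, which encodes TRIF (log2 0.40), did not pass, though Ticam1 did without Tm+LPS replicate 3 (0.0434). Among nucleic acid receptors Tlr13 (log2 -1.09 ± 0.13) and Tlr7 (log2 -0.82 ± 0.16) fell.

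The type I interferon list held 6 rises, 13 falls and 31 genes not passed of 50, with a median of log2 -0.22. Ifnb1 itself had 3.73, 4.76 and 0 FPKM with Tm+LPS, against 2.99, 4.36 and 1.89 FPKM with LPS, and its libraries overlapped. Irgm1, an interferon-inducible GTPase, had 48.4, 66 and 59.3 FPKM with Tm+LPS, against 160, 293 and 181 FPKM with LPS (3.51-fold lower, log2 -1.81 ± 0.18). Its relatives Irgm2 (log2 -1.59 ± 0.26) and Igtp (log2 -1.50 ± 0.26) fell alike, and so did Trim21, an antibody receptor in the cytosol (log2 -1.66 ± 0.23). Ifit3 had 13.1, 10 and 7.17 FPKM with Tm+LPS, against 18.7, 65 and 35.4 FPKM with LPS. LPS replicate 1 was the lowest and LPS replicate 2 the highest of the LPS libraries for Irgm1, Ifit3, Ifit2 and Rsad2. Without LPS replicate 2 the list had 7 falls and Ifit2 lost its call (log2 -0.92, adjusted p = 0.0642). Without LPS replicate 1 it had 3 rises, and Ifit1 and Rsad2, which did not pass with all libraries (adjusted p = 0.085 and 0.159), fell (0.0172 and 0.0165). Ifit1 also fell without control replicate 3 (0.0411) and with the replicate number as a block (0.0402). The rises also numbered 3 without Tm+LPS replicate 1. Ifih1, the RNA sensor MDA5, rose 2.59-fold (log2 1.37 ± 0.21).

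Of 27 immediate early and AP-1 genes, 6 were higher, 3 were lower and 18 missed the threshold. Myc had 27.1, 26.3 and 28.5 FPKM with Tm+LPS, against 18.1, 9.02 and 11.6 FPKM with LPS (2.11-fold, log2 1.08 ± 0.19). Egr2 fell to 1.01 FPKM with Tm+LPS, against 7.08 FPKM with LPS (log2 -1.97 ± 0.28), and Id1, which blocks DNA binding of basic helix-loop-helix proteins, to 2.46 FPKM, against 10.4 FPKM (log2 -1.73 ± 0.22). The rises numbered 2 without LPS replicate 3 and 3 without Tm+LPS replicate 3. Macrophage transcription factors gave 3 rises and 6 falls among 24, against 13.8% and 15.1% over all tested genes. Spi1, which encodes PU.1, did not pass (log2 -0.16). Maf fell 2.31-fold (log2 -1.21 ± 0.19). Mef2c fell as well (log2 -0.89), and the rises were Nr1d2 (log2 0.90), Irf8 (log2 0.83 ± 0.12) and Bhlhe40 (log2 0.73). Nfil3, a basic leucine zipper repressor, had 46.8, 56.7 and 51 FPKM with Tm+LPS, against 3.74, 2.52 and 3.54 FPKM with LPS (12.4-fold, log2 3.63 ± 0.21).

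The enzymes of the activated macrophage moved separately. Nos2, inducible nitric oxide synthase, had 45.5, 23.8 and 38.9 FPKM with Tm+LPS, against 7.31, 11.2 and 14.2 FPKM with LPS, without overlap. Irg1 (Acod1), which makes itaconate, had 858, 986 and 842 FPKM with Tm+LPS, against 1693, 1889 and 1691 FPKM with LPS (1.96-fold lower, log2 -0.97 ± 0.18). These are products of LPS activation that went in opposite directions. Ptgs2, cyclooxygenase 2, had 142, 162 and 157 FPKM with Tm+LPS and 96, 113 and 151 FPKM with LPS and did not pass (log2 0.38, adjusted p = 0.289). In the list of 26 genes with these enzymes, 7 rose and 6 fell. Ptgir, the prostacyclin receptor, rose 3.76-fold (log2 1.91 ± 0.14), Ptges, a prostaglandin E synthase, fell 2.19-fold (log2 -1.13 ± 0.28), and Arg2, a mitochondrial arginase, rose to 8.2 FPKM with Tm+LPS, against 3.14 FPKM with LPS (adjusted p = 0.0299). Arg2 lost its call without LPS replicate 3 or Tm+LPS replicate 1 or 3 (0.0809 to 0.158) and with a pseudocount of 0.1 or no filter.

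In glycolysis there were 3 rises and 8 falls among 27 genes, and 3 rises and 14 falls with tunicamycin without LPS. The list summed to 11200 to 13200 FPKM with LPS and 12300 to 12500 FPKM in controls. Hk2, hexokinase 2, rose to 20.7 FPKM with Tm+LPS, against 9.64 FPKM with LPS (log2 1.06 ± 0.19). Ldha, which makes lactate, fell to 1170 FPKM, against 2069 FPKM (log2 -0.82 ± 0.09), and the lactate exporters Slc16a3 (log2 -1.01 ± 0.13) and Slc16a1 (log2 -1.03 ± 0.21) fell with it. Of 33 sterol and fatty acid genes, 2 rose and 11 fell. Cyp51 (log2 -1.22 ± 0.22) and Idi1 (log2 -1.19 ± 0.24), enzymes of cholesterol synthesis, fell. Mvd, in the same pathway, rose (log2 1.25 ± 0.17), as did the cholesterol exporter Abca1 (log2 0.84 ± 0.17). NRF2 targets gave 6 rises and 6 falls of 24, and Nfe2l2, which encodes NRF2, fell 1.79-fold (log2 -0.84 ± 0.11). Those rises numbered 2 without LPS replicate 1 or 2 or Tm+LPS replicate 1 and 3 without Tm+LPS replicate 2 or 3, and the falls 3 without Tm+LPS replicate 2.

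Cell cycle genes were lower. There were 22 falls and 1 rise among 39 tested, with a median of log2 -0.51. With tunicamycin without LPS the list had 27 falls and 0 rises, with a median of log2 -0.70. Ccnd1, cyclin D1, had 3.64, 3.95 and 2.66 FPKM with Tm+LPS, against 19.6, 37.8 and 12.7 FPKM with LPS (5.06-fold lower, log2 -2.34 ± 0.29). Rrm2, which makes deoxynucleotides, had 10.6, 23.6 and 20.3 FPKM with Tm+LPS, against 62.9, 85.9 and 70 FPKM with LPS (4.02-fold lower). The libraries of both genes lay apart. Cdk1 (log2 -1.31 ± 0.13), Pcna (log2 -0.98 ± 0.12) and Ccne2 (log2 -1.59) fell too, while Mki67 (log2 -0.15) and Top2a (log2 -0.31) did not pass, though Top2a did without Tm+LPS replicate 2 (0.0256). The rise, in Cdc6 (log2 0.89, adjusted p = 0.0181), was lost without LPS replicate 1 or Tm+LPS replicate 1 or 3 (0.0625 to 0.0825). Among 31 genes of cell death and survival, 9 rose and 5 fell. Bcl2a1a, an NF-kB-induced survival gene with close copies in the mouse genome that may share reads, rose 3.5-fold (log2 1.81 ± 0.29), and its copy Bcl2a1d rose as well (log2 1.19). Casp4, the mouse caspase-11 that senses LPS in the cytosol, had 101, 56 and 59.7 FPKM with Tm+LPS, against 20.1, 21 and 24.7 FPKM with LPS (3.09-fold). Bcl2l1, which encodes Bcl-xL, fell (log2 -0.82 ± 0.11), while Mcl1 (log2 -0.26) and Bax (log2 0.16) did not pass, though Bax passed as higher without Tm+LPS replicate 2 (0.0202), with quantile normalization (log2 0.33, 0.0201) and with the length correction (log2 0.36, 0.00445).

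Surface receptors of macrophages were lower as a list, with 23 falls, 5 rises and 19 genes not passed of 47, with a median of log2 -0.48. With tunicamycin without LPS the list had 21 falls and 9 rises, with a median of log2 -0.33. Msr1, the scavenger receptor A, had 89.1, 117 and 97 FPKM with Tm+LPS, against 489, 539 and 520 FPKM with LPS (5.09-fold lower, log2 -2.35 ± 0.10). Itgb2, the integrin chain CD18, had 51.5, 50.2 and 50.9 FPKM with Tm+LPS, against 251, 260 and 275 FPKM with LPS (5.06-fold lower, log2 -2.34 ± 0.11). Its partner chain gene Itgam did not pass (log2 0.19). C5ar1, the C5a receptor, fell to 156 FPKM with Tm+LPS, against 740 FPKM with LPS (log2 -2.26 ± 0.15), and the fractalkine receptor gene Cx3cr1 to 1.24 FPKM, against 9.82 FPKM (log2 -2.26 ± 0.26). The Fc receptor gene Fcgr3 fell 2.88-fold (log2 -1.52 ± 0.14), while Mrc1 (log2 -0.11), Mertk (log2 0.38) and Csf1r (log2 0.14) did not pass. The 5 rises, in Icam1 (log2 0.31), P2rx4 (log2 0.36), Clec4e (log2 0.54), Gpr34 (log2 0.63) and Itga4 (log2 0.79), numbered 1 without LPS replicate 1 and 3 without Tm+LPS replicate 3.

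Neutrophil markers moved beside these receptors. The 11 of 12 listed genes found in the table summed to 77.2 to 166 FPKM with Tm+LPS and 242 to 381 FPKM with LPS, and of the 8 tested 5 fell, 1 rose and 2 did not pass. S100a8 had 6.56, 0.569 and 9.93 FPKM with Tm+LPS, against 187, 124 and 102 FPKM with LPS (26.5-fold lower, log2 -4.73 ± 0.48), and S100a9 fell 7.86-fold (log2 -2.97 ± 0.40). The granule genes Ngp (log2 -1.75), Ltf (log2 -1.55) and Mmp8 (log2 -0.87) fell, and Lcn2 rose (log2 1.47 ± 0.27). S100a8 averaged 138 FPKM with LPS and 67 FPKM in controls, and S100a9 53.5 and 18.5 FPKM, so both were higher with LPS. Mpo and Elane stood under 1 FPKM in all 6 libraries. Stromal markers summed to 37.9 to 81.4 FPKM with Tm+LPS and 32.7 to 41.4 FPKM with LPS, with 2 rises in 9, Col3a1 (log2 1.49 ± 0.37) and Dcn (log2 1.48 ± 0.47). Both were highest in Tm+LPS replicate 3, and without it Dcn did not pass (log2 0.83, adjusted p = 0.143). Dcn also lost its call without LPS replicate 1 (0.0864) or 2 (0.0619). In the cells without LPS, Dcn had 4.29, 12.6 and 14.4 FPKM with tunicamycin, against 0.937, 0.819 and 0.0685 FPKM in controls. It rose there by log2 2.73 ± 0.47 (limma adjusted p = 0.000284), and Col3a1 by 1.87 ± 0.37 (0.000843). Without LPS the stromal list had 4 rises and 0 falls, and the neutrophil list 1 rise and 3 falls. The part of these cells in the results was not tested.

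Antigen presentation and costimulation genes gave 7 rises and 6 falls of 27. Cd83 had 777, 749 and 741 FPKM with Tm+LPS, against 284, 255 and 313 FPKM with LPS (2.67-fold, log2 1.41 ± 0.12), and Cd40 rose 2.36-fold (log2 1.24 ± 0.20). Both mark activated antigen-presenting cells. The costimulators Cd80 (log2 -0.20) and Cd86 (log2 0.23) and the class I gene H2-K1 (log2 0.18) did not pass, H2-K1 passing with quantile normalization (adjusted p = 0.00692), while the class II gene H2-Aa (log2 -1.08 ± 0.25) fell. Autophagy and lysosome genes gave 6 rises and 9 falls of 41, against 13.8% and 15.1% over all tested genes. The autophagy genes Ulk1 (log2 1.05), Nbr1 (log2 0.98) and Optn (log2 0.98) were highest. Other large changes outside the lists were rises in Wfs1, an ER membrane protein (log2 2.99 ± 0.23), and Ssh2, an actin regulator phosphatase (log2 2.97 ± 0.20). Among the falls were Oaf (log2 -3.81 ± 0.33), Angptl2 (log2 -3.38 ± 0.13), Crip1 (log2 -3.08 ± 0.12), Stim2, an ER calcium sensor (log2 -2.68 ± 0.29), and the beta-tubulin gene Tubb2a (log2 -2.54 ± 0.13).

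Housekeeping lists moved with transcript length. For 9669 tested genes (93.8%) with a protein-coding transcript in GENCODE M21, the median change was log2 -0.49 in the 87 genes of up to 600 nucleotides, -0.36 in the next class of up to 900 nucleotides and 0.09 in those over 5000. The median deviation of the shortest genes from their own mean was -0.01, -0.40 and -0.13 in the Tm+LPS libraries and 0.43, 0.24 and 0.30 in the LPS libraries. The cause was not tested. Of 35 ribosomal protein genes, 23 of them at most 1200 nucleotides long, 0 rose and 10 fell, with a median of log2 -0.14. This direction flipped to 13 rises and 5 falls (median log2 0.09) with a correction for length and to 11 rises and 5 falls (median log2 0.04) with quantile normalization, and the falls numbered 5 without LPS replicate 1. Rpl37a, which had 249, 217 and 239 FPKM with Tm+LPS, against 652, 554 and 592 FPKM with LPS (log2 -1.35 ± 0.10), was furthest down. Respiratory chain genes gave 2 rises and 9 falls of 26, led by Cox7a2 (log2 -1.36 ± 0.11). Of the 25 with a transcript length, 2 rose and 8 fell without the correction, and 4 rose and 7 fell with it. Uqcrh, another small subunit, was 6.03-fold lower (log2 -2.59 ± 0.16). The stress list medians changed less: the ATF4 and CHOP list stood at log2 1.81 with the correction. Only 1 of its 23 transcripts was at most 1200 nucleotides long, so the correction could move this list little. Hspa8, the constitutive cytosolic HSP70, had 412, 411 and 435 FPKM with Tm+LPS, against 1637, 1767 and 1669 FPKM with LPS (4.02-fold lower, log2 -2.01 ± 0.08). The mitochondrial chaperone Hspa9 (log2 1.28 ± 0.11) and protease Lonp1 (log2 1.54 ± 0.17) rose, and the heat-inducible Hspa1a (log2 0.39) did not pass.

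**Figure D4:**
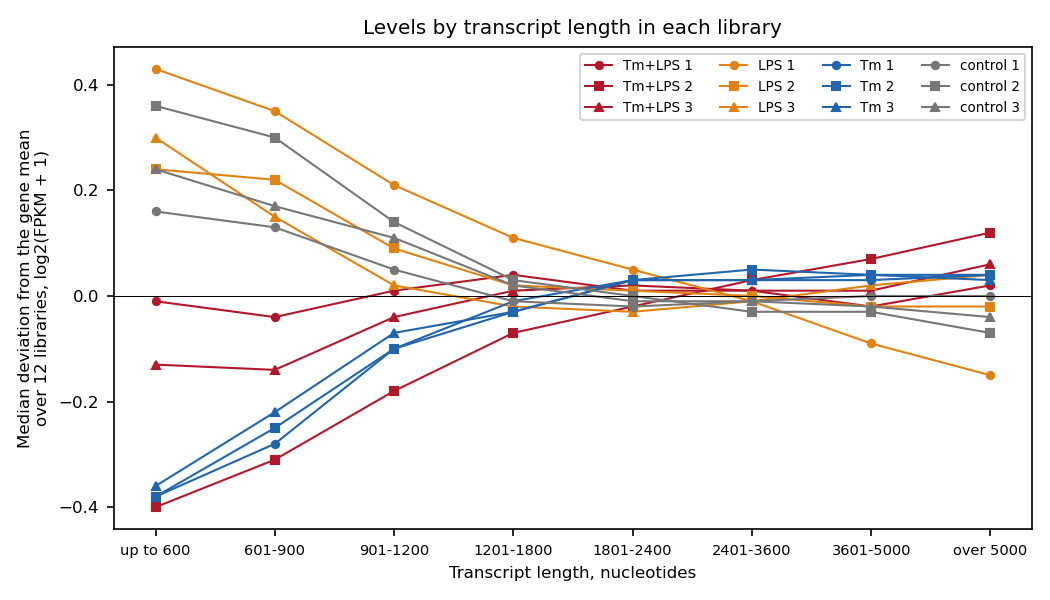
Median deviation of each library from the mean of all 12, as log2(FPKM + 1), for tested genes in 8 classes of transcript length. For transcripts up to 600 nucleotides the Tm+LPS libraries lie between -0.40 and -0.01 and the LPS libraries between 0.24 and 0.43. Over 5000 nucleotides the median deviations run from -0.15 in LPS replicate 1 to 0.12 in Tm+LPS replicate 2.

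The effect of tunicamycin with LPS was then set beside its effect without LPS. The group means of the latter come from other libraries, but both tests share the spread estimated from all 12 libraries. The overlap of calls is therefore not independent agreement. Without LPS 3557 genes (34.5%) passed for tunicamycin against control, 1843 higher (17.9%) and 1714 lower (16.6%). Of the 2978 genes that passed with LPS, 2040 passed without it too, which is 68.5% of the first set and 57.4% of the second, and 1979 of these moved in the same direction. Across the 10311 genes, which are not independent, the changes had a Pearson correlation of 0.66 and a Spearman correlation of 0.64. The difference between the effects, tested as an interaction, passed in 347 genes (3.37%), 145 above 0 (1.41%) and 202 below 0 (1.96%). Without Tm replicate 3 it passed in 228 genes. Among the 785 genes that changed at least 2-fold with LPS, it passed in 101. The exposure time of the Tm cells was not given. In the interaction, the presence of LPS and an unlike time with tunicamycin therefore cannot be told apart.

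Hspa5 was 11.2-fold higher with tunicamycin both with and without LPS (interaction log2 0.00 ± 0.19), Trib3 changed by log2 6.55 with LPS and 6.41 without it (interaction 0.14 ± 0.21), and Csf1 by 2.53 and 2.64 (interaction -0.12 ± 0.24). The interaction passed in 0 genes of the chaperone, degradation, translocation and amino acid synthesis lists and in 1 synthetase, Mars (log2 0.60, adjusted p = 0.0421), which lost the call when any 1 of 11 of the 12 libraries, all but Tm+LPS replicate 1, was left out. Of the ATF4 and CHOP list, Herpud1 (log2 -1.55 ± 0.18), Gadd45a (log2 -2.04 ± 0.32), Ppp1r15a (log2 -1.18 ± 0.13) and Sqstm1 (log2 -1.03) passed, all with a smaller fold rise in the presence of LPS. A smaller fold rise need not mean a lower level. Herpud1 averaged 1409 FPKM with Tm+LPS and 73.2 FPKM with LPS, against 980 FPKM with tunicamycin alone and 16.8 FPKM in controls.

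Where the interaction was above 0, tunicamycin raised a gene more, or lowered it less, with LPS than without. Among the genes named here Il23a had the largest (log2 4.90 ± 0.32, adjusted p = 1.35e-07): without LPS it had 0, 0.266 and 0.591 FPKM with tunicamycin and was listed at 0 in every control library. Tnfsf9 also had an interaction above 0 (log2 1.56 ± 0.21), while Nos2 missed the threshold (adjusted p = 0.0523). The interaction of Il6 was just past it (log2 1.17 ± 0.31, adjusted p = 0.0496). It lost the call when any 1 of 11 of the 12 libraries, all but Tm replicate 3, was left out (adjusted p = 0.0557 to 0.133) and with the replicate number as a block (0.0684). It stood at log2 -0.38 with a pseudocount of 0.1 (0.802), Il6 being under 1 FPKM on average in Tm and control cells. Ccl2 was low with tunicamycin alone, at 16.3, 18.8 and 13.6 FPKM, against 379, 604 and 454 FPKM in controls. Its change was thus log2 -4.79 ± 0.15 without LPS and -1.08 ± 0.15 with it (interaction 3.71 ± 0.21). Ccl7 (log2 2.93 ± 0.19) and Id1 (log2 2.94 ± 0.31) also fell in both comparisons and by more without LPS. Dusp6, a phosphatase of ERK, fell with tunicamycin alone to 2.59 FPKM, against 35 FPKM in controls, and had 6.13 FPKM with Tm+LPS and 3.9 FPKM with LPS (interaction 3.90 ± 0.31). Myc was higher with Tm+LPS than with LPS (log2 1.08 ± 0.19) and lower with tunicamycin alone than in controls (log2 -1.23 ± 0.19). Gna12 (log2 2.91 ± 0.69) and Ybx3 (log2 2.84 ± 0.71) also passed, at adjusted p = 0.0262 and 0.0349, and lost the call when any of several libraries was left out, for example Tm replicate 3 (0.0554 and 0.0851).

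Interactions below 0 were found in interferon and NF-kB genes. In the interferon list 31 of 50 genes rose and 1 fell without LPS, with a median of log2 0.78, and 17 had an interaction below 0 and 0 above. Ifit3 had 5.87, 10 and 9.63 FPKM with tunicamycin, against 0.415, 1.23 and 1.21 FPKM in controls. It was thus higher with tunicamycin alone (log2 2.28 ± 0.35) and lower with Tm+LPS than with LPS (log2 -1.74 ± 0.35), with an interaction of -4.02 ± 0.49 (adjusted p = 0.000114). Ifit2 did the same (interaction -3.80 ± 0.54). Cxcl10 rose to 25.8, 27.1 and 16.3 FPKM with tunicamycin, against 3.08, 1.34 and 3.52 FPKM in controls, and had 815 to 945 FPKM with Tm+LPS and 1345 to 2332 FPKM with LPS (interaction -3.73 ± 0.33). Cd69, an activation marker, had the same pattern (interaction -3.76 ± 0.34), though its fall with Tm+LPS did not pass without LPS replicate 2 (adjusted p = 0.055). Gpr84, a receptor for fatty acids, rose to 167 FPKM with tunicamycin, against 17.6 FPKM in controls, and had 503 FPKM with Tm+LPS and 572 FPKM with LPS (log2 -0.18, adjusted p = 0.181, interaction -3.36 ± 0.14). In the NF-kB list 17 of 30 genes rose without LPS and 8 with it, and 12 interactions were below 0 and 0 above, Relb among them (log2 -1.61 ± 0.18). Irg1 was higher with tunicamycin alone, at 6.63 FPKM against 2.38 FPKM in controls, and lower with Tm+LPS than with LPS (interaction -2.17 ± 0.25). Of the 2040 genes that passed in both comparisons, 61 moved in opposite directions.

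**Figure D5:**
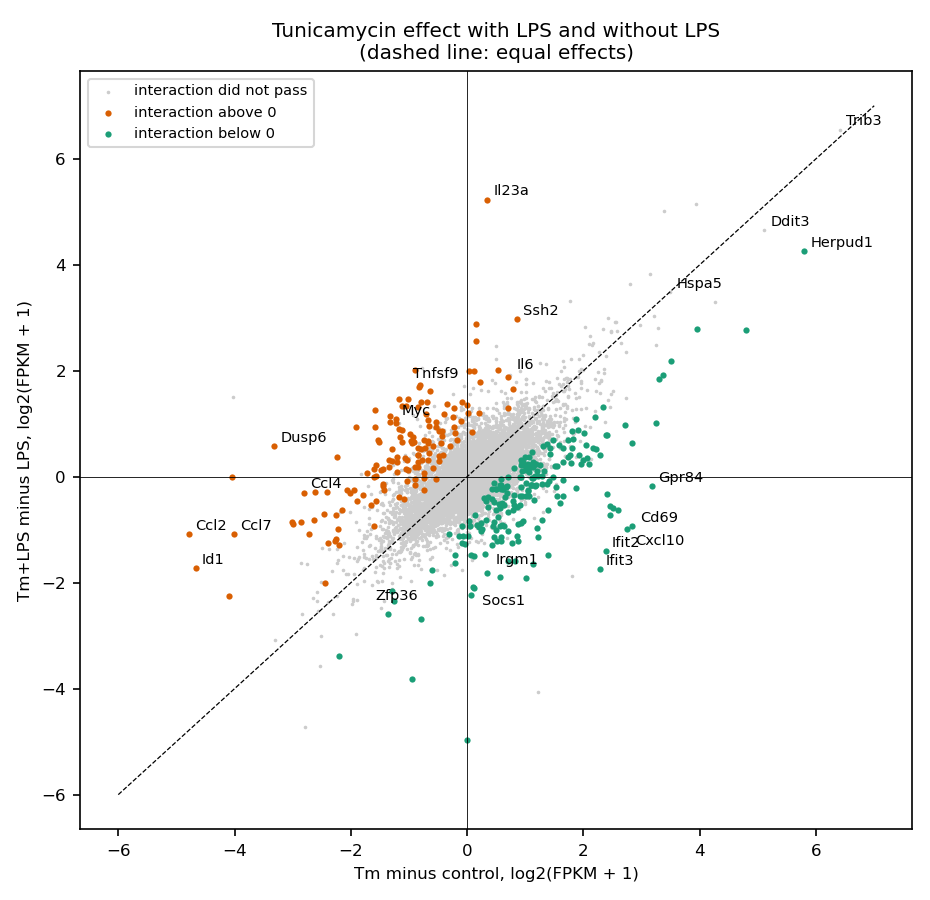
Change with tunicamycin without LPS (x axis, Tm minus control) and with LPS (y axis, Tm+LPS minus LPS) for 10311 genes, as log2(FPKM + 1), coloured where the interaction passed. Trib3, Ddit3 and Hspa5 lie near the line of equal effects, Il23a (interaction 4.90) far above it, and Ifit3, Cxcl10 and Gpr84 far below it.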

How the data were processed

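RNA sequencing of 12 libraries, 3 in each of 4 groups assigned from the sample labels, was analysed from the deposited FPKM values per gene. The submitters' processing notes name TopHat2 2.0.13, Bowtie2 2.2.3, SAMtools 0.1.19, Cufflinks 2.2.1 and the build mm10, without their settings, and per the labels the libraries were made from total RNA. FPKM holds no depth, and whole reads could not be recovered from its low values, so no count model was used and no counting interval is given.

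Genes with at least 1 FPKM in at least 3 of the 12 libraries were tested as log2(FPKM + 1) with limma 3.58.1 under R 4.3.3. Each of the 4 groups had its own mean, the 12 libraries shared the spread, and eBayes used a mean-variance trend. The contrasts were Tm+LPS minus LPS, Tm minus control, and their difference. P-values were adjusted by Benjamini-Hochberg over all genes tested, and the fit was checked on simulated data. Transcript lengths and gene coordinates came from GENCODE M21 (23268 of 24346 symbols matched) and promoters from RefSeq. Tables and figures were made with Python 3.11.15, pandas 2.3.3 and matplotlib 3.10.9. Alternatives changed the pseudocount, filter, scaling, variance model, minimum fold, libraries fitted and replicate block. A correction for transcript length was chosen after seeing the data.

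The members and the 38 gene lists were chosen with earlier results of these data known. Genes named by rule are the 12 largest rises and 12 largest falls, up to 3 passing genes of each list, 43 fixed genes and the 8 largest interactions each way. Small RNAs with large changes are not described, and some genes that the rule selects are not reported here. Chosen after their values were seen were Abca1, Bax, Bcl2l1, Bhlhe40, C5ar1, Canx, Cd80, Cd86, Cdc6, Cdk1, Clec4e, Cnpy3, Creld2, Csf1r, Cxcl2, Edn1, Eif2ak2, Erp29, Farsb, Fcgr3, Gadd45a, Gnpnat1, Gpr34, H2-Aa, H2-K1, Hspa1a, Hyou1, Icam1, Idi1, Ifih1, Igtp, Irf8, Irgm2, Itga4, Itgam, Lcn2, Ldha, Ltf, Ly96, Mars, Mcl1, Mertk, Mki67, Mmp8, Mrc1, Mthfd1, Myd88, Nfkbiz, Osm, Ost4, P2rx4, P4hb, Pcna, Pdia4, Pgm3, Ppib, Ppp1r15a, Ppp1r15b, Ptges, Relb, Sesn2, Slc1a5, Slc7a5, Slc7a6, Socs4, Spi1, Sqstm1, Stt3a, Stt3b, Ticam1, Tmx1, Tollip and Top2a, as well as Il10, Csf3 and the 6 genes whose promoters are printed.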

Additional observations from a re-analysis of the deposited data

Results flagged for a closer look

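For 63 of the genes chosen by the naming rule or after their values were seen, the effect of tunicamycin differed between cells with and without LPS by the interaction of the limma fit, at an adjusted p under 0.05. The value beside each gene is the log2 effect with LPS (Tm+LPS minus LPS) less that without it (Tm minus control), from 3 libraries a group. As the exposure time of the Tm cells is unknown, LPS and an unlike time with tunicamycin cannot be told apart in these values. With any 1 library left out 46 of them still passed. The other 17, Atf3, Cx3cl1, Cxcl1, Dusp2, Gna12, Gpr34, Hacd4, Hk2, Hspa8, Igtp, Il1rn, Il6, Maf, Mars, Nfkbid, Nfkbiz and Ybx3, lost the call without at least 1 library. Some of the 46 lost it under other alternatives. With a pseudocount of 0.1, Il1b (log2 -0.90, adjusted p = 0.266) and Socs1 (log2 -2.69, adjusted p = 0.0632) did not pass.

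The difference was above 0 for the cytokine genes Il23a (4.90), Il6 (1.17), Il1rn (1.07), Ccl2 (3.71), Ccl7 (2.93), Ccl3 (1.44), Ccl4 (2.50) and Tnfsf9 (1.56). It was above 0 for the signalling and transcription genes Dusp6 (3.90), Dusp7 (2.86), Id1 (2.94), Myc (2.31), Maf (1.07), Gna12 (2.91) and Ybx3 (2.84), for the receptors Tlr13 (1.63), Cd14 (0.66), C5ar1 (1.84) and Gpr34 (1.30) and for Ssh2 (2.11), Hk2 (1.16), Hspa8 (0.43), Bcl2l1 (1.82) and Mars (0.60).

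The difference was below 0 for the interferon-response genes Ifit3 (-4.02), Ifit2 (-3.80), Rsad2 (-3.23), Ifit1 (-3.17), Irgm2 (-2.43), Irgm1 (-2.15), Igtp (-1.61) and Cxcl10 (-3.73). It was below 0 for the inflammatory and feedback genes Il1b (-1.27), Cxcl1 (-1.70), Cx3cl1 (-2.19), Nfkbid (-1.50), Nfkbiz (-1.18), Relb (-1.61), Socs1 (-2.22), Socs3 (-1.79), Dusp2 (-1.61), Zfp36 (-1.37), Ticam2 (-1.46), Irg1 (-2.17), Ptges (-2.34) and C3 (-3.08), for the transcription factor gene Spi1 (-0.72) and for the surface proteins Cd69 (-3.76), Gpr84 (-3.36), Icam1 (-1.69), Clec4e (-1.27), Itgb2 (-1.08) and Ptgir (-1.45). It was below 0 for the stress genes Gadd45a (-2.04), Herpud1 (-1.55), Ppp1r15a (-1.18), Sqstm1 (-1.03), Nfe2l2 (-0.88) and Atf3 (-0.61), and for Oaf (-2.86), Stim2 (-1.87), Angptl2 (-1.18) and Hacd4 (-1.22), which fell with Tm+LPS.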

How the results depend on the processing

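Of 220 tested genes chosen for naming, 176 passed for Tm+LPS against LPS, 98 of them under every alternative. The other 78 lost the call under at least 1, 57 of them only where a fold of at least 1.5 was required, and 0 of the 176 changed sign. That requirement left 409 genes for Tm+LPS against LPS, 603 for Tm against control and 78 for the interaction. With 1 library left out, the counts were 2310 to 3034, 2803 to 3677 and 228 to 352. Rises were 47.6% of the calls for Tm+LPS against LPS, 47.4% with median-of-ratios scaling and 48% with quantile normalization.

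Genes that did not pass and changed sign were Il27 (log2 -0.16 to 0.37 with 1 library left out), Ifnb1 (-0.86 to 0.40), Cd86 (-0.18 to 0.53), Ly96 (-0.40 to 0.28, and 0.37 with the length correction), Stt3a (-0.10 to 0.11, and -0.07 with the length correction) and Csf2 (-0.11 to 0.18, and -0.04 with quantile normalization). With quantile normalization Nfkbia stood at 0.04 and Spi1 at 0.06. With the length correction, chosen after seeing the data, Ccl3 stood at 0.01 and Ccl4 at 0.13. The interaction of Il6 stood at log2 -0.38 with a pseudocount of 0.1. The cause was not tested.

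Same-numbered Tm+LPS and LPS libraries deviated from their group means with correlations of 0.058, 0.095 and -0.007, so the number was not taken to pair them. With the replicate number as a block, 2993 genes passed against 2978 without it, 3552 against 3557 for Tm against control and 348 against 347 for the interaction. Depth was unknown, and FPKM of low genes limits what their values can show.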
